A study of Mus musculus with 9 samples.

Results

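The genes described here are 53 components of the mouse DNA replication machinery, found by symbol in the Gene column of both deposited expression tables. All 53 were present once in each table, among 23279 usable gene rows, and all 53 belonged to the 10878 genes with a mean raw level of at least 1 FPKM that entered the tests. They comprise the factors that load and fire the replicative helicase, the polymerases, the sliding clamp with its loader, the single-strand binding protein RPA, the enzymes that finish Okazaki fragments, enzymes that supply deoxynucleotides, and fork protection and chromatin assembly factors. The series compared RNA of mouse pro-B cell cultures in 3 groups of 3 libraries. In Ts1Rhr mice the part of chromosome 16 between Cbr1 and Fam3b, which holds Hmgn1, is present in an additional copy, and these mice were on an FVB and C57BL/6 F1 background per the labels. The HMGN1_OE group overexpressed Hmgn1, a nucleosome-binding protein, on C57BL/6 per the labels. The WT group held wild-type littermates, of which group the labels do not say, nor on which strain they were, so that strain and genotype cannot be told apart. Every culture began with bone marrow of mice aged 6 to 8 weeks, grown in methylcellulose with interleukin-7, a cytokine that sustains B cell precursors. Colonies were pooled after 7 days, so each library is a pooled culture and not a sorted population. Synthetic ERCC spike-in RNA was added per equal number of cells. The labels call the libraries of a group biological replicates and do not say which animals they came from. The p-values therefore set group differences against the spread among these cultures, which may not be that among animals. What drives the Hmgn1 transgene is not stated in the labels.

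Replication begins with licensing in G1 phase, when the origin recognition complex, Cdc6 and Cdt1 load rings of Mcm2 to Mcm7 onto DNA. In S phase the kinase Cdc7 with Dbf4 and the cyclin-dependent kinases turn loaded rings into active helicases together with Cdc45 and the GINS complex, and the polymerases follow. Many of these genes are transcribed as cells enter S phase under E2F transcription factors, and pro-B cells that answer to interleukin-7 are a rapidly dividing stage of B cell development.

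Levels are given as spike-in normalised FPKM, the authors' second table, unless raw FPKM, their first table, are named. Raw FPKM scale fragments to transcript length and to the size of the library, so levels of different genes can be set side by side. The normalised values were not the raw values times 1 factor per library. In WT replicate 1 Pcna had 492 normalised and 350 raw FPKM, and Orc1 had 3.13 and 3.25. In Ts1Rhr replicate 1 Pcna had 376 and 419, and Orc1 had 7.51 and 5.86. Abundant and scarce genes are therefore not on the same scale on normalised FPKM. A gene is described as having risen or fallen where limma gave a Benjamini-Hochberg adjusted p under 0.05 over all 10878 tested genes. Folds compare geometric levels, from log2 normalised FPKM or log2(raw FPKM + 0.1).

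In Ts1Rhr cultures nearly all replication genes stood above WT, by about 1.5-fold at the median, and Pola1 and Rfc3 rose more than 2-fold. On normalised FPKM, 51 of the 53 were above WT, against 59.9% of all tested genes. The levels of 32 of the 53 did not overlap between groups and were higher in Ts1Rhr, which is 60.4%, against a background of 21.7%. None was lower without overlap, against 8.43% of all genes. The median log2 fold change over the 53 was 0.60, a fold of 1.52, against 0.12 over all tested genes. Only Pola1 and Rfc3 passed the test, 2 of 53 members against 0.423% of all genes called higher, and none was called lower, against 0.147%. Without any 1 of the Ts1Rhr or WT libraries no member passed on normalised FPKM, while the median stayed between 0.47 and 0.75.

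On raw FPKM, whose replicates varied less, 23 of the 53 rose in Ts1Rhr and none fell, against 4.29% of all tested genes called higher and 4.56% called lower. Pola1 and Rfc3 were among these 23, and 30 members passed on neither table. The groups did not overlap for 37 members, all higher, which is 69.8%, against 19.1% of all genes. The median log2 fold change was 0.62, against 0.01 over all genes. The raw count was 8 without Ts1Rhr replicate 1, 19 without WT replicate 2 and 0 without any 1 of Ts1Rhr replicates 2 and 3 and WT replicates 1 and 3. The median SD of log2 levels over the 53 was 0.25 in Ts1Rhr, 0.27 in HMGN1_OE and 0.31 in WT on normalised FPKM. On raw FPKM it was 0.18 in Ts1Rhr, 0.22 in HMGN1_OE and 0.25 in WT.

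**Figure D1:**
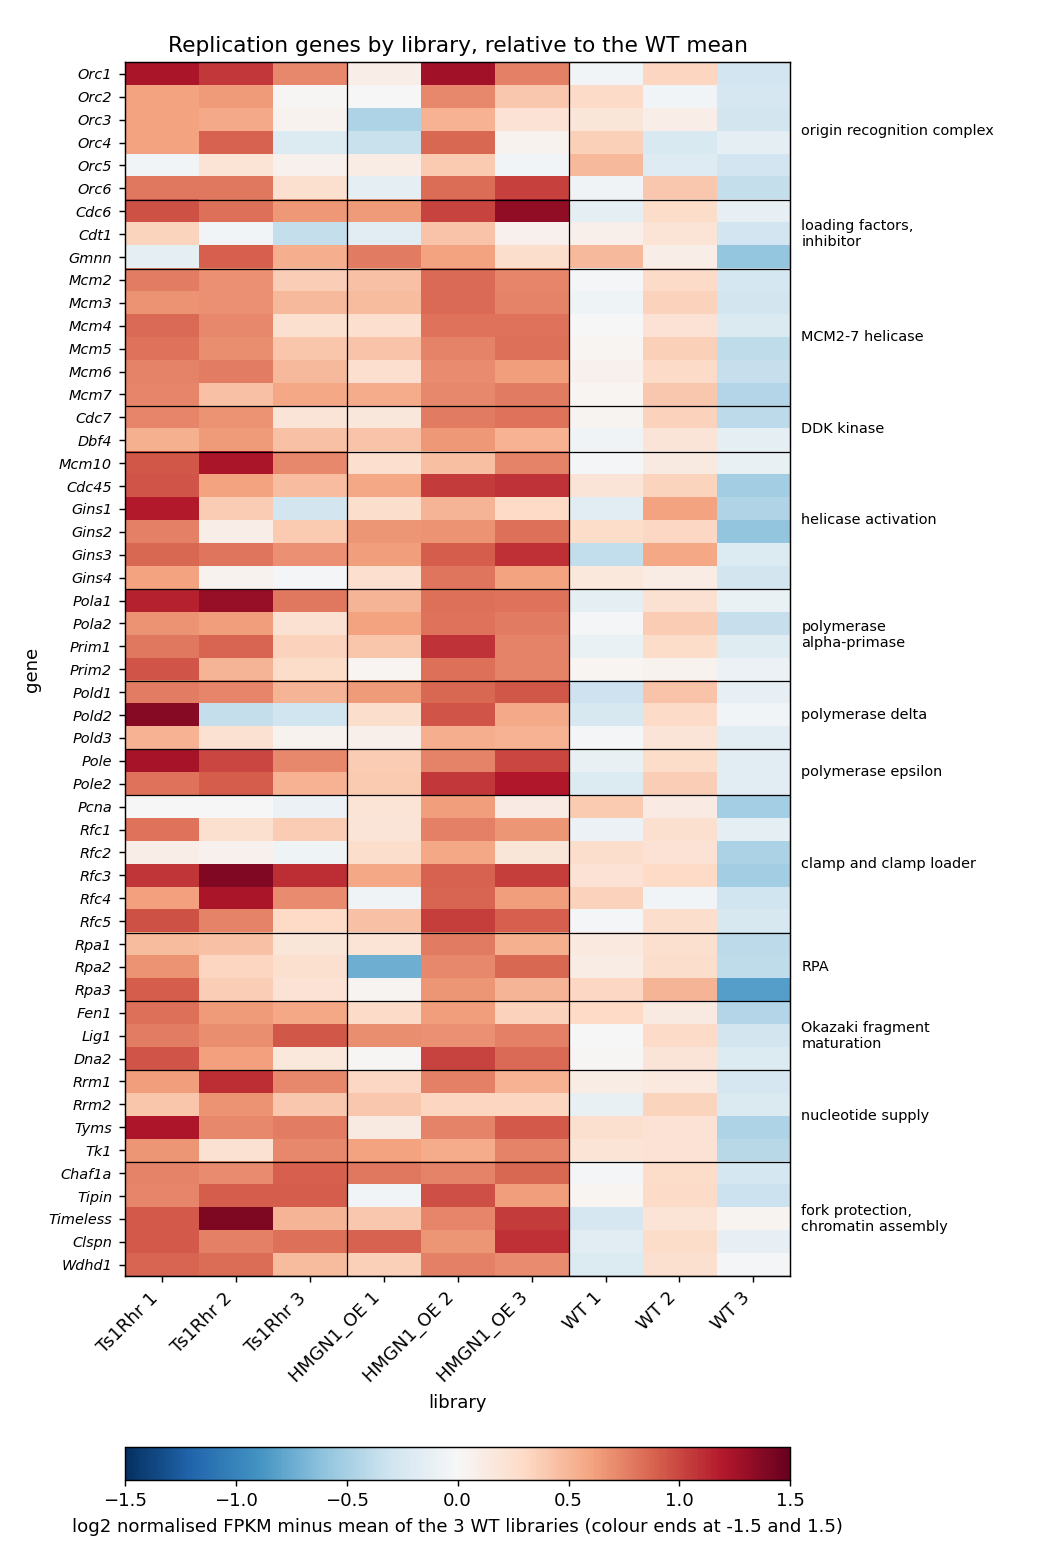
Heat map of log2 normalised FPKM of the 53 replication genes (rows, ordered by sub-complex) in the 9 libraries (columns), minus the mean of the 3 WT libraries for the gene. Red is above and blue below that mean. The Ts1Rhr and HMGN1_OE columns are mostly red, WT replicate 3 is the lowest of the WT columns for most rows, and Cdt1, Orc5, Pcna and Rfc2 show little colour in Ts1Rhr.

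No member lies in the triplicated segment. Of the 53, 3 lie elsewhere on chromosome 16, namely Mcm4, Cdc45 and Rfc4, 10 lie on chromosome 5 and 1, Pola1, on the X chromosome. Chaf1b, the partner of Chaf1a in the chromatin assembly factor CAF-1 and not one of the 53, does lie in the segment.

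The promoters of both genes that passed on normalised FPKM are shown with those of Mcm6, a helicase subunit of the same trend, and Pcna, whose fold was near 1. They come from RefSeq GRCm38.p6, which is not the build of the expression tables. Each is the 250 bases before the gene's start, 5′ to 3′ on the minus strand, which is the gene's own. Their positions are chrX:93632156-93632405 for Pola1, chr5:151651209-151651458 for Rfc3, chr1:128359706-128359955 for Mcm6 and chr2:132253181-132253430 for Pcna. Capitals mark E2F words, searched on both strands as TTTGGCGC, TTTCCCGC, TTTCGCGC and TTTGCCGC.

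Pola1: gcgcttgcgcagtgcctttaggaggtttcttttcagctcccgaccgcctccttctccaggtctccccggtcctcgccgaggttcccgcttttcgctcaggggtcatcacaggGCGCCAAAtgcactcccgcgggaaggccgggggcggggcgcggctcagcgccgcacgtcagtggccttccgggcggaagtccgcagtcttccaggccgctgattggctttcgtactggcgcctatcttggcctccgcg
Rfc3: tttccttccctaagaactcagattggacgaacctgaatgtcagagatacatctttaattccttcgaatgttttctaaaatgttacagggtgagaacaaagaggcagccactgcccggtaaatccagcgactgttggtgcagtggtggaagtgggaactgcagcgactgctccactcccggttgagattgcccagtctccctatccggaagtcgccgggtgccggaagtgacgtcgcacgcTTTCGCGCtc
Mcm6: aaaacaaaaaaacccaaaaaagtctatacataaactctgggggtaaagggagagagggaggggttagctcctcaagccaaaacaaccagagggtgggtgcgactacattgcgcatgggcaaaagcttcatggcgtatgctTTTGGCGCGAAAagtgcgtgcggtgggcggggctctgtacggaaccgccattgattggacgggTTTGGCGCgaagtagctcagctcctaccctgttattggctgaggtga
Pcna: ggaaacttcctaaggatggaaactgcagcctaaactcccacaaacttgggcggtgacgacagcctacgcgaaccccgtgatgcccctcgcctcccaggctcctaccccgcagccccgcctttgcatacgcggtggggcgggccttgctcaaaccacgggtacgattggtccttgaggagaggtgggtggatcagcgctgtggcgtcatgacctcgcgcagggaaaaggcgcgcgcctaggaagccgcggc

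Pola1 held the word as GCGCCAAA, beginning 138 bases before the start. In Rfc3 it stood as TTTCGCGC at 10 bases, and Mcm6 held 3 words, at 110, 106 and 47 bases, of which the first and second overlap. None of the 4 words occurs in the window of Pcna. A promoter was matched for 44 of the 53 members, and 9 of the 44 held an E2F word, which is 20.5%, against 2.16% of 27025 genes. Those 27025 include genes that did not enter the tests, so the shares are not of like sets. The 9 were Orc1, Orc3, Cdc6, Mcm5, Mcm6, Mcm7, Gins3, Pola1 and Rfc3. The CCAAT word or its complement ATTGG occurred in 25 of the 44, which is 56.8%, against 37.5% of the same 27025 genes. Among members with an E2F word the median log2 fold change of Ts1Rhr against WT was 0.78 on normalised FPKM (n = 9), and among those without it was 0.60 (n = 35). The ranges overlapped, from 0.41 to 1.19 with a word and from -0.03 to 0.96 without. On raw FPKM the medians were 0.70 with a word and 0.61 without. The 4 promoters shown were chosen by fold and do not stand for the 44. A match of letters is a description and not evidence of binding.

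The origin recognition complex, which marks origins and opens licensing, differed among its subunits. Orc1, its largest subunit and an ATPase, had the lowest level of all 53 members in each group. It had 7.51, 6.69 and 5.30 FPKM in Ts1Rhr, 3.44, 7.67 and 5.40 FPKM in HMGN1_OE and 3.13, 4.02 and 2.63 FPKM in WT. Ts1Rhr and WT did not overlap, and the fold was 2.00 (log2 1.00, SE 0.32), which did not pass on normalised FPKM (limma, adjusted p = 0.129). On raw FPKM Orc1 rose 1.69-fold (limma, adjusted p = 0.0476). Orc5, another core subunit, had 20.9, 24.7 and 22.4 FPKM in Ts1Rhr, 23.1, 28.0 and 20.9 FPKM in HMGN1_OE and 29.8, 18.7 and 17.5 FPKM in WT. Its groups overlapped throughout, and the fold of Ts1Rhr over WT was 1.06 (log2 0.08, SE 0.25). Orc2, Orc3, Orc4 and Orc6 lay between these at folds of 1.34, 1.33, 1.34 and 1.52, with overlapping groups on normalised FPKM and no call on either table.

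Of the loading factors, Cdc6, the ATPase that joins the origin complex to admit the helicase, stood higher, and Cdt1, which brings in the helicase rings, did not. Cdc6 had 21.0, 19.2 and 16.9 FPKM in Ts1Rhr, 16.8, 21.8 and 27.1 FPKM in HMGN1_OE and 9.79, 13.03 and 9.90 FPKM in WT. All 6 mutant libraries lay above all WT libraries. The fold of Ts1Rhr over WT was 1.75 (limma, adjusted p = 0.113), and on raw FPKM Cdc6 rose 1.63-fold (limma, adjusted p = 0.0464). Cdt1 had 40.8, 31.4 and 25.3 FPKM in Ts1Rhr, 28.8, 43.5 and 33.8 FPKM in HMGN1_OE and 34.3, 37.3 and 26.6 FPKM in WT. These ranges overlapped, and the log2 fold change was -0.02 with a 95% interval of -0.57 to 0.52. Gmnn, which encodes the Cdt1 inhibitor geminin, was the most abundant member on normalised FPKM in every group, at 528 ± 180 FPKM in Ts1Rhr, 552 ± 96.1 FPKM in HMGN1_OE and 391 ± 136 FPKM in WT (SD, n = 3 each). Its Ts1Rhr values were spread widely, with 340 FPKM in replicate 1 and 697 FPKM in replicate 2.

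The 6 subunits of the Mcm2 to Mcm7 ring had nearly equal differences. Their folds of Ts1Rhr over WT lay between 1.5 and 1.59. For each of the 6 the groups did not overlap, against 21.7% of all tested genes higher without overlap. None passed on normalised FPKM (limma, adjusted p from 0.179 to 0.236). On raw FPKM 5 of the 6 rose, all but Mcm4 (limma, adjusted p = 0.054 for Mcm4), against 4.29% of all tested genes. Mcm6 had 107, 109 and 89.9 FPKM in Ts1Rhr, 76.4, 104 and 99.0 FPKM in HMGN1_OE and 66.7, 77.8 and 50.5 FPKM in WT. It had the largest difference of the ring, at a log2 fold change of 0.67 (SE 0.26). Mcm7 had 129, 105 and 115 FPKM in Ts1Rhr, 114, 127 and 132 FPKM in HMGN1_OE and 79.1, 102 and 57.02 FPKM in WT. It had the smallest, at 0.59 (SE 0.27), and its lowest Ts1Rhr library lay just above WT replicate 2. The ratio of Mcm3 to Mcm5 within a library was alike in the groups, with means of 2.00 ± 0.12 in Ts1Rhr, 1.99 ± 0.11 in HMGN1_OE and 1.95 ± 0.20 in WT on raw FPKM (SD, n = 3 each).

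The kinase that fires loaded helicases has the catalytic subunit Cdc7 and the activator Dbf4. Dbf4 had 62.7, 67.5 and 58.9 FPKM in Ts1Rhr, 58.1, 67.8 and 62.5 FPKM in HMGN1_OE and 41.9, 49.4 and 39.3 FPKM in WT. Its mutant libraries all lay above WT, and on raw FPKM it rose 1.48-fold in Ts1Rhr (limma, adjusted p = 0.0497). Cdc7 had 22.4, 21.7 and 15.5 FPKM in Ts1Rhr, 15.2, 23.3 and 23.8 FPKM in HMGN1_OE and 14.0, 17.2 and 10.3 FPKM in WT. The fold of Ts1Rhr over WT was 1.44 for Cdc7 and 1.45 for Dbf4 on normalised FPKM, and only the values of Cdc7 overlapped.

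Among factors that complete the active helicase, Mcm10, which binds the ring and helps it open, differed most between Ts1Rhr and WT. It had 20.1, 24.7 and 17.3 FPKM in Ts1Rhr, 12.5, 14.4 and 17.6 FPKM in HMGN1_OE and 10.4, 11.5 and 9.72 FPKM in WT. Its fold of Ts1Rhr over WT was 1.94 (log2 0.96, SE 0.23, limma, adjusted p = 0.0698), and on raw FPKM it rose 1.80-fold (limma, adjusted p = 0.033). Cdc45, a core part of the moving helicase, was at a fold of 1.59 and rose 1.55-fold on raw FPKM (limma, adjusted p = 0.0479). The 4 GINS subunits were uneven. Gins3 had a fold of 1.72 with no overlap on normalised FPKM, while Gins4 had 21.7, 14.9 and 14.2 FPKM in Ts1Rhr, 17.0, 24.9 and 21.7 FPKM in HMGN1_OE and 15.99, 15.5 and 11.8 FPKM in WT. Gins4 overlapped between Ts1Rhr and WT at a fold of 1.16, and Gins1 had 19.8 FPKM in Ts1Rhr replicate 1 against 7.17 FPKM in Ts1Rhr replicate 3. The median log2 fold change of these 6 genes was 0.55, and it was 0.31 without WT replicate 3.

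Pola1, the catalytic subunit of polymerase alpha, which begins each new strand with primase, rose in Ts1Rhr. It had 36.1, 40.2 and 28.1 FPKM in Ts1Rhr, 23.1, 28.8 and 28.6 FPKM in HMGN1_OE and 14.9, 19.1 and 15.2 FPKM in WT. The Ts1Rhr and HMGN1_OE libraries all lay above WT, and the Ts1Rhr and HMGN1_OE ranges overlapped only through Ts1Rhr replicate 3. The fold of Ts1Rhr over WT was 2.12 (log2 1.08, SE 0.23, limma, adjusted p = 0.0481). On raw FPKM it was 2.04 (limma, adjusted p = 0.0283). Pola1 is X-linked, and Ts1Rhr replicate 3, with 0.443 raw FPKM of Xist against 94.2 to 193 raw FPKM in the other libraries and 41.8 raw FPKM of the Y-linked Ddx3y, was the only library with male levels of both. Without it the fold change of Pola1 was 1.23 on the log2 scale (limma, adjusted p = 0.0778).

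The other subunits of that complex differed less. Pola2, its regulatory subunit, had 49.9, 48.4 and 37.0 FPKM in Ts1Rhr, 47.6, 55.4 and 54.1 FPKM in HMGN1_OE and 30.8, 40.9 and 24.6 FPKM in WT. Its fold was 1.42, with overlap at Ts1Rhr replicate 3 and WT replicate 2. The primase subunits Prim1 and Prim2 were at folds of 1.59 and 1.49 without overlap, and Prim1 rose on raw FPKM (limma, adjusted p = 0.0409). Within a library the raw ratio of Pola1 to Pola2 was 0.704, 0.822 and 0.753 in Ts1Rhr, 0.499, 0.525 and 0.519 in HMGN1_OE and 0.506, 0.480 and 0.607 in WT. The Ts1Rhr ratios lay above all others. The 9 pairs of genes whose ratios were computed were chosen after their values were seen, so the ratios carry no test.

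Polymerase epsilon, which copies the leading strand, differed more than polymerase delta, which copies the lagging strand. Pole, the catalytic subunit, had 21.8, 18.6 and 15.2 FPKM in Ts1Rhr, 12.1, 15.5 and 18.5 FPKM in HMGN1_OE and 8.53, 11.2 and 8.24 FPKM in WT. Its fold of Ts1Rhr over WT was 1.98 (limma, adjusted p = 0.0715), and on raw FPKM it rose 1.82-fold (limma, adjusted p = 0.0325). Pole2, its second subunit, had 17.1, 18.3 and 14.0 FPKM in Ts1Rhr, 12.8, 20.3 and 22.4 FPKM in HMGN1_OE and 8.48, 12.6 and 8.68 FPKM in WT. Both subunits were above WT in all 6 mutant libraries.

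Of polymerase delta, Pold1, the catalytic subunit, had 50.5, 49.3 and 42.1 FPKM in Ts1Rhr, 46.2, 53.9 and 56.2 FPKM in HMGN1_OE and 23.9, 39.9 and 27.2 FPKM in WT. Its mutant libraries all lay above WT, at a fold of 1.59 in Ts1Rhr that passed on neither table (limma, adjusted p = 0.165 on normalised and 0.0694 on raw FPKM). Pold2, an accessory subunit, had 14.5, 4.41 and 4.57 FPKM in Ts1Rhr, 6.78, 10.8 and 8.32 FPKM in HMGN1_OE and 4.75, 6.90 and 5.46 FPKM in WT. Its Ts1Rhr mean rested on replicate 1, without which the log2 fold change was -0.33 in place of 0.24. Pold3 had a fold of 1.20 with overlap. The median log2 fold change of the 3 subunits was 0.27, and it was 0.14, 0.53 and 0.51 without Ts1Rhr replicates 1, 2 and 3 in turn.

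**Figure D2:**
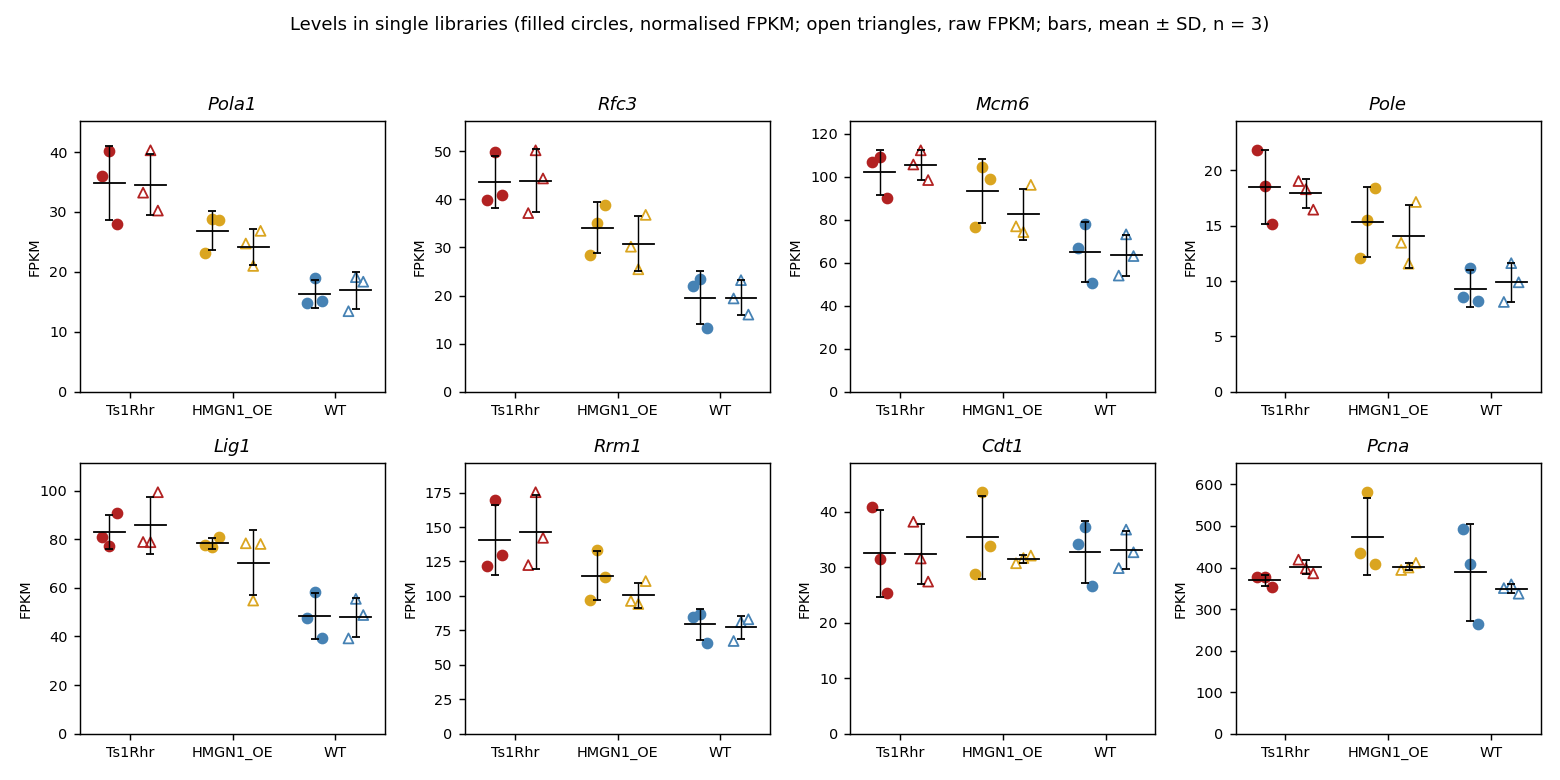
Levels of 8 replication genes in the single libraries of the Ts1Rhr, HMGN1_OE and WT groups, in FPKM on axes that start at 0, with filled circles for normalised and open triangles for raw FPKM. Horizontal bars are means and vertical bars SD (n = 3). Pola1, Rfc3, Mcm6, Pole, Lig1 and Rrm1 are higher in every Ts1Rhr library than in every WT library on both scales, while Cdt1 overlaps on both and Pcna on normalised FPKM.

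The clamp and its loader held the widest range of differences. Pcna, the sliding clamp that tethers polymerases, was among the 2 most abundant members in each group and had 376, 377 and 354 FPKM in Ts1Rhr, 435, 581 and 408 FPKM in HMGN1_OE and 492, 410 and 263 FPKM in WT. Its log2 fold change was -0.03, with a 95% interval of -0.71 to 0.65, and the 3 Ts1Rhr values lay within the WT range. On raw FPKM Pcna had 419, 398 and 386 FPKM in Ts1Rhr, 394, 400 and 411 FPKM in HMGN1_OE and 350, 359 and 337 FPKM in WT. There both mutant groups lay above WT without overlap, at a fold of 1.15 in Ts1Rhr that did not pass (limma, adjusted p = 0.32).

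The loader, which opens the clamp around DNA, is made of Rfc1 and the 4 small subunits Rfc2 to Rfc5. Rfc3 rose in Ts1Rhr. It had 39.9, 49.8 and 41.0 FPKM in Ts1Rhr, 28.4, 35.1 and 38.8 FPKM in HMGN1_OE and 22.0, 23.4 and 13.2 FPKM in WT. The 3 groups did not overlap, and the fold of Ts1Rhr over WT was 2.29 (log2 1.19, SE 0.26, limma, adjusted p = 0.0481). Rfc4 and Rfc5 were at folds of 1.80 and 1.59 and rose on raw FPKM (limma, adjusted p = 0.0325 and 0.0424), Rfc1 was at 1.39 with overlap, and Rfc2 averaged 49.3 ± 2.84 FPKM in Ts1Rhr, 61.5 ± 9.34 FPKM in HMGN1_OE and 49.4 ± 12.9 FPKM in WT (SD, n = 3 each). The fold of Rfc2 was 1.02, with a 95% interval of the log2 fold change from -0.50 to 0.57.

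The same values can be given as ratios within a library, for pairs chosen after their levels were seen. The raw ratio of Rfc3 to Rfc2 was 0.757, 0.978 and 0.880 in Ts1Rhr, 0.505, 0.490 and 0.701 in HMGN1_OE and 0.404, 0.429 and 0.374 in WT. All 3 groups were apart, with HMGN1_OE in between. The ratio of Rfc4 to Rfc2 was 1.23, 1.93 and 1.46 in Ts1Rhr, 0.692, 1.04 and 1.16 in HMGN1_OE and 0.904, 0.719 and 0.964 in WT. Only Ts1Rhr stood apart there, and for Rfc1 to Rfc2 the groups overlapped.

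**Figure D3:**
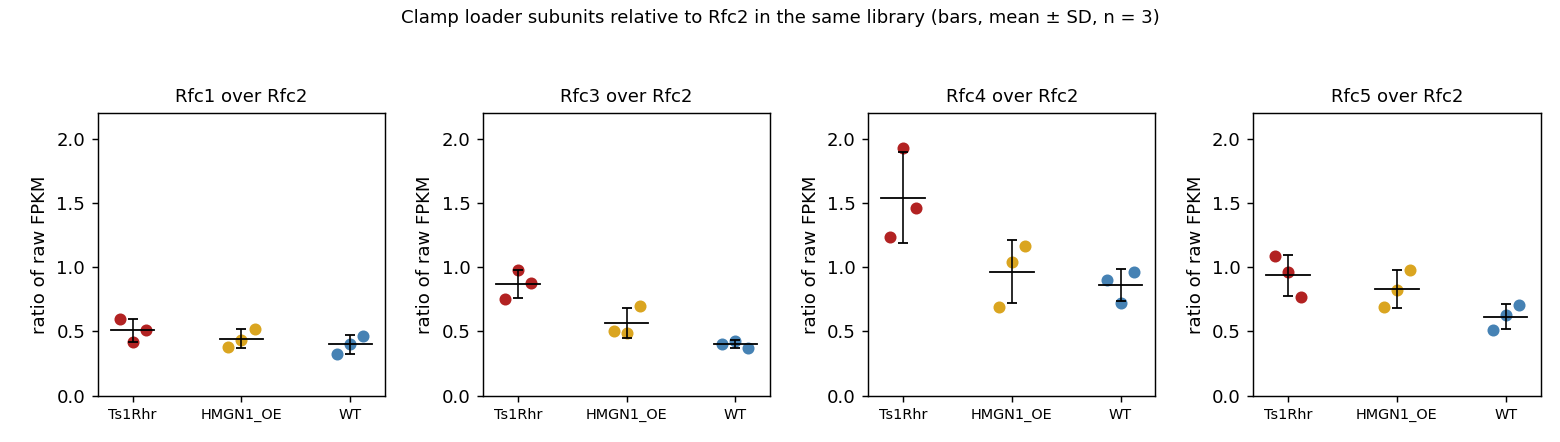
Ratio of raw FPKM of Rfc1, Rfc3, Rfc4 and Rfc5 to that of Rfc2 in the same library, on axes that start at 0. Points are the libraries of the Ts1Rhr, HMGN1_OE and WT groups, horizontal bars means and vertical bars SD (n = 3). The Rfc3 ratio is 0.757 or more in Ts1Rhr and 0.429 or less in WT, and the Rfc1 ratio overlaps between the groups.

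RPA, the trimer that covers single-stranded DNA, was the sub-complex in which no subunit separated Ts1Rhr from WT on normalised FPKM. Rpa1, its large subunit, had 81.1, 79.3 and 66.7 FPKM in Ts1Rhr, 67.8, 100.4 and 84.6 FPKM in HMGN1_OE and 64.9, 69.4 and 44.7 FPKM in WT. Rpa3, its smallest subunit, had 54.8, 37.9 and 34.0 FPKM in Ts1Rhr, 30.03, 46.5 and 41.8 FPKM in HMGN1_OE and 36.4, 41.8 and 16.5 FPKM in WT. Folds of Ts1Rhr over WT lay between 1.29 and 1.41, and none of the 3 passed on either table. For Rpa1 and Rpa2 the groups did not overlap on raw FPKM.

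Of the enzymes that finish Okazaki fragments, Lig1, the ligase that seals them, and Fen1, the flap nuclease, rose on raw FPKM. Lig1 had 81.1, 77.1 and 90.9 FPKM in Ts1Rhr, 77.5, 76.7 and 80.8 FPKM in HMGN1_OE and 47.4, 58.3 and 39.3 FPKM in WT. All mutant libraries lay above WT, and the fold in Ts1Rhr was 1.74 (limma, adjusted p = 0.113) and 1.80 on raw FPKM (limma, adjusted p = 0.0325). Fen1 was at 1.60-fold, and at 1.65-fold on raw FPKM (limma, adjusted p = 0.0283). Dna2, a nuclease and helicase that trims long flaps, had 13.9, 10.99 and 7.99 FPKM in Ts1Rhr, 7.28, 14.5 and 12.9 FPKM in HMGN1_OE and 7.26, 8.21 and 6.24 FPKM in WT. Its fold was 1.49, with overlap through Ts1Rhr replicate 3. The raw ratio of Fen1 to its clamp partner Pcna was 0.183, 0.178 and 0.189 in Ts1Rhr, 0.143, 0.124 and 0.133 in HMGN1_OE and 0.130, 0.132 and 0.122 in WT, with Ts1Rhr above all others.

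All 4 enzymes of deoxynucleotide supply stood higher in Ts1Rhr without overlap on normalised FPKM, against 21.7% of all tested genes. Rrm1, the large subunit of ribonucleotide reductase, averaged 140.4 ± 25.4 FPKM in Ts1Rhr, 115 ± 17.9 FPKM in HMGN1_OE and 79.3 ± 11.5 FPKM in WT (SD, n = 3 each), and rose 1.89-fold in Ts1Rhr on raw FPKM (limma, adjusted p = 0.0283). Rrm2, the small subunit, had 166, 198 and 165 FPKM in Ts1Rhr, 164, 155 and 155 FPKM in HMGN1_OE and 114, 157 and 106 FPKM in WT. Its fold of 1.41 was the smallest of the 4 and passed on neither table. Tyms, which makes thymidylate, had 12.3, 8.77 and 9.04 FPKM in Ts1Rhr, 5.86, 8.91 and 10.1 FPKM in HMGN1_OE and 6.31, 6.19 and 3.88 FPKM in WT. Its fold of 1.86 was the largest of the 4, and it rose on raw FPKM (limma, adjusted p = 0.0464). Tk1, which salvages thymidine, was at 1.45-fold.

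The 5 fork protection and chromatin assembly genes were all higher in Ts1Rhr without overlap on both tables, with a median log2 fold change of 0.84. Of all tested genes 21.7% were so on normalised and 19.1% on raw FPKM. Timeless, which pairs with Tipin to steady the fork, had 19.1, 26.5 and 14.3 FPKM in Ts1Rhr, 13.3, 16.7 and 20.8 FPKM in HMGN1_OE and 8.45, 11.6 and 10.4 FPKM in WT. Wdhd1, which links the helicase to polymerase alpha, had 28.3, 27.5 and 21.5 FPKM in Ts1Rhr, 19.8, 26.0 and 25.4 FPKM in HMGN1_OE and 13.4, 18.2 and 15.1 FPKM in WT. Both genes were above WT in all 6 mutant libraries. Folds of Ts1Rhr over WT were 1.92 for Timeless, 1.80 for Tipin, 1.79 for the checkpoint mediator Clspn, 1.72 for the histone chaperone subunit Chaf1a and 1.65 for Wdhd1. On raw FPKM Tipin, Chaf1a and Wdhd1 rose (limma, adjusted p = 0.0325, 0.0407 and 0.0464).

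Set side by side on normalised FPKM, sub-complexes next to each other in order of their medians had overlapping ranges. Some further apart, such as the listed subunits of polymerase delta and polymerase epsilon, did not. On raw FPKM those of delta, up to 0.67, and of epsilon, from 0.62, did overlap. The medians of log2 fold change of Ts1Rhr over WT ran from 0.27 for polymerase delta, 0.41 for RPA, 0.42 for the origin recognition complex and 0.44 for the loading factors, through 0.53 for Cdc7 with Dbf4, 0.55 for helicase activation, 0.57 for the clamp and loader, 0.61 for the Mcm2 to Mcm7 ring and 0.62 for polymerase alpha with primase. They ended with 0.68 for both Okazaki fragment maturation and nucleotide supply, 0.84 for fork protection and 0.87 for polymerase epsilon. Each median was above the 0.12 of all tested genes. The spread within a sub-complex was 0.08 for the ring and 1.22 for the clamp and loader, so neighbours in this order do not differ beyond the spread of their members. Some of these medians moved by over 1.5 times when 1 library was left out. Without WT replicate 3 the median was 0.17 for RPA and 0.15 for the loading factors. Leaving out Ts1Rhr replicate 2 put the loading factors at 0.20, leaving out Ts1Rhr replicate 1 put them at 0.72, and leaving out WT replicate 1 put them at 0.68. On raw FPKM they were at 0.67. The origin recognition complex was at 0.68 without Ts1Rhr replicate 3.

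**Figure D4:**
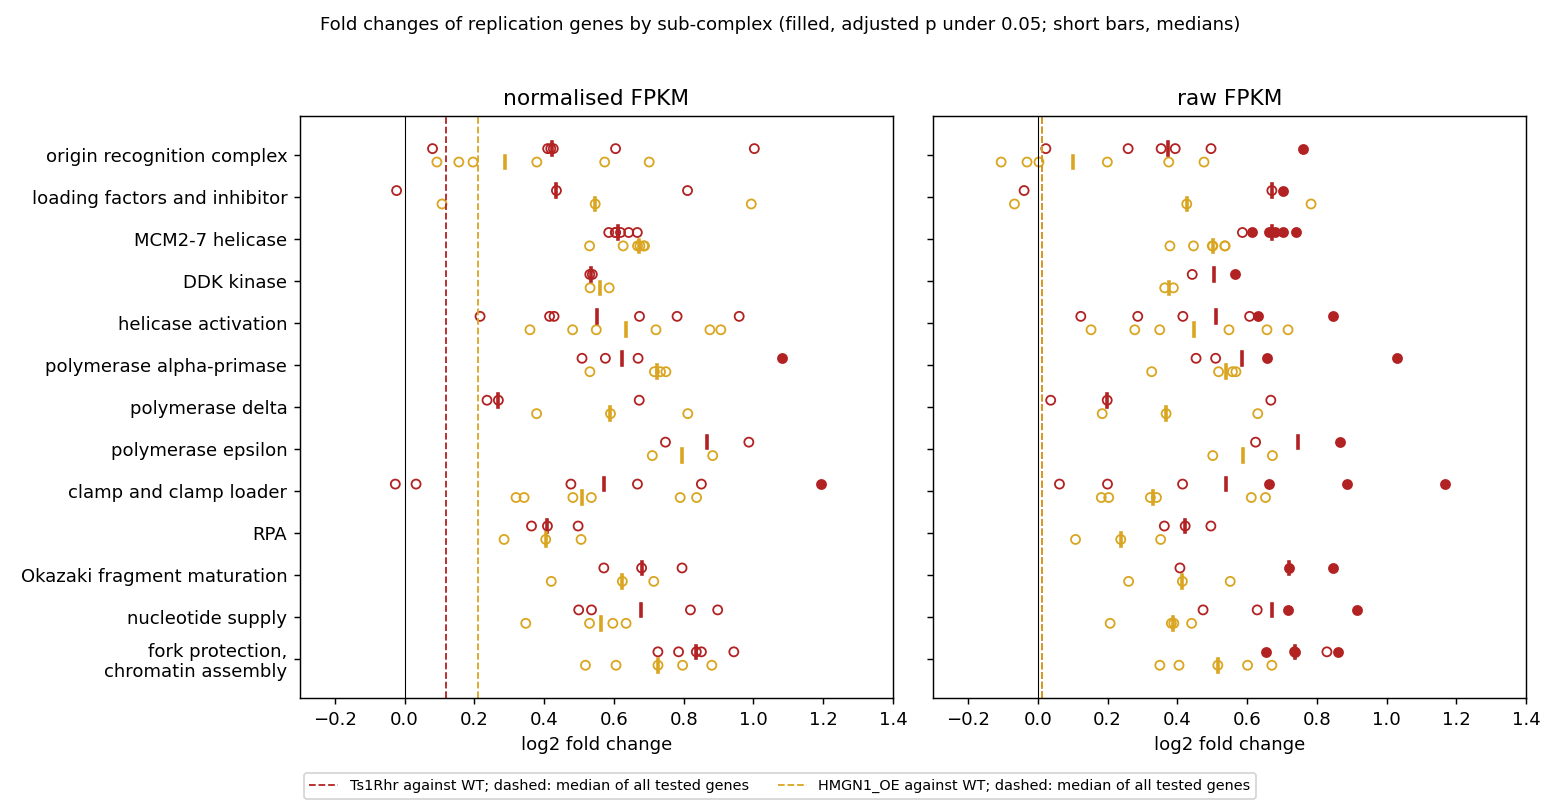
Log2 fold changes of the 53 genes (points) by sub-complex (rows), for Ts1Rhr against WT in red and HMGN1_OE against WT in yellow, on normalised FPKM at left and raw FPKM at right. Filled points have an adjusted p under 0.05 and short vertical bars are medians of the sub-complex. Dashed lines are the medians of all tested genes, 0.12 and 0.21 on normalised and 0.01 and 0.01 on raw FPKM, and 2 red points are filled at left and 23 at right.

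In HMGN1_OE cultures replication genes also stood above WT, and none passed the test. On normalised FPKM all 53 were above WT, against 72.7% of all tested genes, and 27 did not overlap, which is 50.9%, against 16.6%. On raw FPKM 50 were above WT, against 51.6%, and 26 did not overlap, which is 49.1%, against 9.81%. With limma 0 of 53 passed on normalised FPKM, against 0.00919% of all genes called higher and 0.0827% called lower. On raw FPKM 0 of 53 passed, against 0% called higher and 0.0368% called lower. An unadjusted p under 0.05 was reached by 29 of 53 higher members on normalised FPKM, against 10.9% of all genes, and by 28 on raw FPKM, against 7.18%. The median log2 fold change was 0.59, against 0.21 over all genes, and on raw FPKM it was 0.39, against 0.01. The largest difference was that of Cdc6, with 21.9 ± 5.15 FPKM in HMGN1_OE and 10.9 ± 1.84 FPKM in WT (SD, n = 3 each), a fold of 1.99 (limma, adjusted p = 0.184). Cdc45, Pole2, Clspn and Gins3 followed with folds between 1.83 and 1.87 and no overlap. The smallest were those of Orc3 at 1.07, Cdt1 at 1.08 and Orc5 at 1.11, and these 3 were the members below WT on raw FPKM. In this group the median of the origin recognition complex was a fold of 1.22, against 1.59 for the Mcm2 to Mcm7 ring. Both mutant comparisons use the same WT libraries, so their likeness is not independent.

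Between Ts1Rhr and HMGN1_OE no member passed on either table, and none of the 10878 genes did, which is 0%. The folds lay between 0.782 and 1.39 on normalised FPKM, with a median log2 difference of -0.03, against -0.09 over all genes. At an unadjusted p under 0.05, 0 members were higher on normalised FPKM, against 0.864% of all genes, and 9 on raw FPKM, against 3.9%. Without overlap, Rfc3 and Rrm2 were higher in Ts1Rhr on normalised FPKM, against 1.79% of all genes, and Pcna and Rfc2 lower, against 6.6%. On raw FPKM 11 members were higher without overlap, which is 20.8%, against 6.89% of all genes, and Rfc2 alone was lower, against 5.99%. Fen1 had the smallest unadjusted p there, with 73.5 ± 3.01 raw FPKM in Ts1Rhr and 53.5 ± 3.41 raw FPKM in HMGN1_OE (SD, n = 3 each), a fold of 1.38 (limma, adjusted p = 0.492). The Hmgn1 row itself was at 121 ± 6.01 FPKM in Ts1Rhr, 84.6 ± 14.3 FPKM in HMGN1_OE and 64.4 ± 15.2 FPKM in WT (SD, n = 3 each). On raw FPKM it had 77.2, 71.9 and 73.4 FPKM in HMGN1_OE and 60.1, 67.3 and 58.5 FPKM in WT. Hmgn1 did not pass in HMGN1_OE against WT on either table. Whether this row counts RNA of the transgene was not tested.

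Other genes of the cell cycle were mostly above WT in Ts1Rhr too, and as for the 53 members more passed on raw than on normalised FPKM. Of all tested genes 59.9% were above WT on normalised FPKM, while 0.423% were called higher there and 4.29% on raw FPKM. Of 28 tested replication factors outside the 53, 27 were above WT, with a median log2 fold change of 0.57, and Chaf1b and Rnaseh2c rose, while 7 rose on raw FPKM. Chaf1b, which has an extra gene copy in Ts1Rhr, rose 2.10-fold (limma, adjusted p = 0.0481), with 22.7 ± 4.06 FPKM in Ts1Rhr and 10.8 ± 1.79 FPKM in WT (SD, n = 3 each). In HMGN1_OE it had 20.1, 17.1 and 19.5 FPKM, also above every WT library, and did not pass. Rnaseh2c, a subunit of the enzyme that removes ribonucleotides from DNA, rose 2.45-fold (limma, adjusted p = 0.0481). Of 23 further genes of nucleotide supply 19 were above WT and none passed on normalised FPKM, 13 having an unadjusted p under 0.05, and 8 rose on raw FPKM. Of 18 G1/S cyclin and E2F family genes 17 were above WT, and Ccne2, the cyclin E2 that drives entry into S phase, rose 2.86-fold (limma, adjusted p = 0.0209), while 5 rose on raw FPKM. Of 25 mitotic genes 24 were above WT, with a median of 0.65, and Ndc80, a kinetochore protein, rose 2.36-fold (limma, adjusted p = 0.0393), while 12 rose on raw FPKM. On raw FPKM the median of the mitotic genes was 0.60, against 0.62 for the 53 replication genes.

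These cultures were not pure. For the counts below, 59.9% of all tested genes were above WT in Ts1Rhr on normalised FPKM. On raw FPKM 4.29% were called higher and 4.56% lower. The pro-B markers were present, with Vpreb1, a part of the surrogate light chain, at 90.4 to 262 raw FPKM over all libraries, and 11 of 13 were above WT in Ts1Rhr without passing on normalised FPKM, while 5 of them, Dntt, Igll1, Rag2, Vpreb1 and Vpreb2, rose on raw FPKM. Of 22 myeloid marker symbols 21 were in the tables, and their summed level was 11253 to 14745 FPKM in Ts1Rhr, 12163 to 43248 FPKM in HMGN1_OE and 17165 to 60921 FPKM in WT. On raw FPKM the sums were 14741 to 16985 in Ts1Rhr, 13202 to 27654 in HMGN1_OE and 22566 to 34166.5 in WT. The median log2 fold change of the 19 tested myeloid markers in Ts1Rhr against WT was -0.82 on both tables. Lyz2, the lysozyme of macrophages and granulocytes, made up 86.4% to 92.0% of the normalised sum in each library. The other myeloid markers summed to 1211 to 1532 FPKM in Ts1Rhr, 1271 to 3707 FPKM in HMGN1_OE and 1836 to 4845 FPKM in WT. All 19 tested myeloid markers were below WT in Ts1Rhr, 0 of them passed on normalised FPKM, where 9 had an unadjusted p under 0.05, and 6 fell on raw FPKM. In HMGN1_OE all but 1 of the 19 were below WT, and none passed on either table. Stromal markers summed to 8.46 to 20.4 FPKM in Ts1Rhr, 8.53 to 16.1 FPKM in HMGN1_OE and 60.2 to 99.1 FPKM in WT. All 5 tested fell in Ts1Rhr on both tables. In HMGN1_OE 4 of the 5 fell on normalised FPKM and 2, Lox and Sparc, on raw FPKM. Of 9 erythroid markers 8 had a mean under 0.5 raw FPKM, and the only tested one, Car2, rose in Ts1Rhr. Of the T and NK markers 7 of 9 had a mean under 0.5 raw FPKM, as had 5 of 7 mast cell and basophil markers and 3 of 7 dendritic cell markers. In a mixed culture, more cells of a kind and more RNA per cell cannot be told apart, and the part that culture makeup has in the replication gene differences was not tested.

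The level of the 53 genes relative to all genes can be set beside these sums library by library. The median log2 level of the members minus that of all tested genes was 1.29, 1.28 and 1.26 in Ts1Rhr, 1.34, 1.05 and 1.30 in HMGN1_OE and 0.79, 0.97 and 0.66 in WT. All 6 mutant libraries lay above all 3 WT libraries. WT replicate 1, which had the highest myeloid sum, also had 10510 raw FPKM of the ribosomal RNA row Rn45s.

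**Figure D5:**
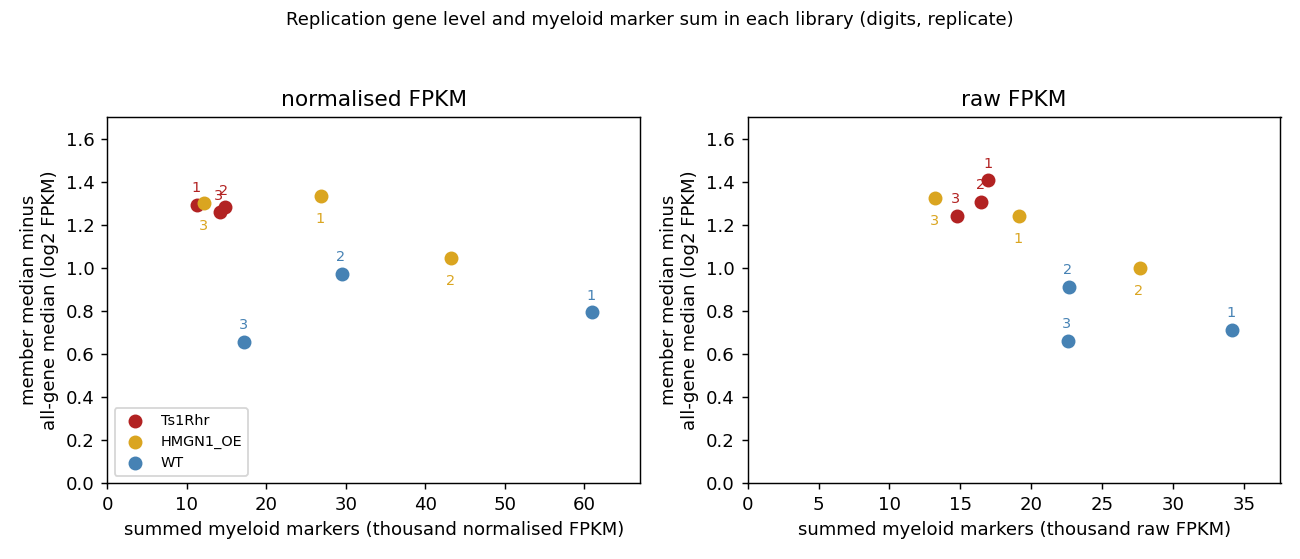
Median log2 FPKM of the 53 replication genes minus that of all tested genes (vertical axes, from 0) against the summed level of the myeloid markers, mostly Lyz2, in 1000 FPKM (horizontal axes, from 0), on normalised FPKM at left and raw FPKM at right. Each point is a library, with its replicate number beside it. The 6 mutant libraries lie at 1.05 or higher on normalised FPKM and the WT libraries at 0.97 or lower, and the Ts1Rhr libraries sit at the low end of the myeloid sums.

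Between 10720 and 10893 genes reached 1 raw FPKM per library, the spike-in share of all raw FPKM lay at 0.2% to 0.343%, and the depth in reads is unknown because FPKM are not counts. The global level, the median log2 FPKM over all tested genes, was 0.13 above WT in Ts1Rhr (exact permutation p = 0.5, two-sided) and 0.21 above WT in HMGN1_OE (exact permutation p = 0.4), where 0.1 is the smallest p that 3 libraries against 3 allow.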

How the data were processed

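The authors deposited 2 tables of FPKM, raw and normalised, 1 column for each library. Per the submitters' processing notes, mm9 was the build and HISAT and Cufflinks 2.0.0 were used, and polyadenylated RNA and spike-in for scaling per cell per the labels' protocols. No source used here says how the normalised table was computed. Its values already hold about 0.1 and entered as log2, and raw values as log2(FPKM + 0.1), which understates folds of low genes. Of 23398 rows, 92 spike-ins and 27 rows with date-like names were left out, and genes averaging 1 raw FPKM or more were tested in 1 limma fit of all 9 libraries, with an intensity trend (limma 3.58.1, R 4.3.3). No count test was run. The fit was checked on simulated data. Values in every library are given for members called on normalised FPKM and for the members with the largest and smallest difference of each sub-complex in Ts1Rhr against WT, and genes of the other lists are named where called. Ratios, non-overlap and further members were named after their values were seen. The members, sub-complexes and lists were chosen with earlier results of these data known. Supt16h and Adgre1 were not among the symbols of the tables, which hold Adgre1 under its older symbol Emr1, also in the myeloid list. Chromosomes, gene order and promoters came from RefSeq GRCm38.p6. Alternatives were other scalings, pseudocounts, filters and fits, a replicate block and leaving out each library. The raw fits without single libraries and with the block were added after seeing the data.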

Additional observations from a re-analysis of the deposited data

How the results depend on the processing

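The number of replication genes called in Ts1Rhr against WT, 2 on normalised FPKM, depended on the processing. It was 23 on raw FPKM and also on raw FPKM with a pseudocount of 1, 7 with normalised FPKM shifted to equal library medians, 4 with only the 2 groups compared, 0 with 1 spike-in factor per library, 0 with no filter on low values and 0 with no intensity trend. A filter at a mean of 5 FPKM gave 2. Leaving out 1 library gave 0 to 4 on normalised FPKM. On raw FPKM it gave 8 without Ts1Rhr replicate 1, 15, 21 and 25 without HMGN1_OE replicates 1, 2 and 3, 19 without WT replicate 2 and 0 without each of the other 4 libraries. No member was called in HMGN1_OE against WT or in Ts1Rhr against HMGN1_OE under any of the 18 alternatives. The cause of these differences was not tested. The median log2 fold change of the 53 lay between 0.47 and 0.75 in Ts1Rhr against WT and between 0.38 and 0.75 in HMGN1_OE against WT. In Ts1Rhr against HMGN1_OE its sign varied, from -0.15 to 0.13. Hmgn1 in Ts1Rhr against WT passed on raw FPKM (log2 fold change 1.03), with a pseudocount of 1 (1.01) and with equal medians (0.81).

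Members near 0 in Ts1Rhr against WT turned direction. Pcna was at 0.20 on raw FPKM, with a pseudocount of 1 too, and at 0.18 with 1 spike-in factor, Orc5 at -0.055 with equal medians and -0.00090 with 1 spike-in factor. Without single libraries Pcna lay between -0.28 and 0.17, Cdt1 between -0.20 and 0.14, Orc5 between -0.065 and 0.32 and Pold2 between -0.33 and 0.53. The global level of Ts1Rhr against WT was -0.016 with 1 spike-in factor, and that of Ts1Rhr against HMGN1_OE was 0.00098 on raw FPKM and between -0.22 and 0.078 without single libraries. With equal medians it has no value by construction.

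Deviations of libraries with the same replicate number correlated between -0.132 and 0.156, and those with different numbers between -0.284 and 0.211. No pairing by number was seen, but with 3 libraries a group these correlations could hardly show one. With the replicate block 2 members were called on normalised and 6 on raw FPKM, against 2 and 23 without it.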
